A study of Mus musculus with 4 samples.

Results

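A set of 691 keratinocytes of the Diff_MK library was selected on 5 genes, Akap12, Krt8, Fn1, Ccn2 and Dbn1. For each cell with at least 1000 detected genes and at most 15% mitochondrial UMIs (unique molecular identifiers, each standing for 1 captured RNA molecule), the score was the mean over these genes of the natural log of 1 plus the gene's UMIs per 10000. The top 10% by score are the high-score cells, 691 of the 6912 Diff_MK cells kept and of the 14087 cells kept in both RNA libraries of the series. They were compared with the 3456 cells in the middle 50% of the score, called the middle cells. A set taken from a continuous score is a range and not a cell type, and it is named here by its genes only.

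The series paired droplet-based 3' RNA libraries with libraries of heritable DNA tags from MK, a line of mouse keratinocytes, the main cell type of the epidermis. There are 4 groups of 1 library each: MK RNA, MK tag, Diff_MK RNA and Diff_MK tag. Every group carries the treatment label Dox, and all cells were sorted as GFP-positive and came from a culture with 15% fetal bovine serum, so no group without Dox or without the tag construct was compared. The labels do not say what Diff stands for, nor how long cells were treated, and the line is 1 source of cells in every group. With 1 library a group there is no measure of spread between cultures and no p-value is given. Intervals, all exact at the 95% level, cover counting error alone.

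Akap12 encodes an anchoring protein that holds protein kinase A and protein kinase C near the plasma membrane and the cortical actin. Krt8 encodes a type II keratin of simple epithelia, which polymerizes with its type I partner from Krt18 and is normally scarce in keratinocytes of stratified epidermis. Fn1 encodes fibronectin, an extracellular matrix protein bound by integrins, Ccn2 encodes connective tissue growth factor, a secreted matricellular protein and standard target of the YAP and TEAD transcription factors, and Dbn1 encodes drebrin, which binds actin filaments. Fibronectin deposition and YAP activity in keratinocytes are known above all from wound edges and from spread cells in culture.

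The 5 genes had few UMIs in most cells, so the score was 0 in 2737 Diff_MK cells (39.6%), and 1009 of those fell among the middle cells by the order of their barcodes. The lowest score inside the set was 0.5107 and the highest outside was 0.5104, with 149 high-score cells and 159 other cells within 0.05 of the boundary. The 20 cells just inside had 160 CPM of Akap12 and 245 CPM of Krt8 (CPM is the field's unit of level scaled to depth, here over the summed UMIs of the cells), and the 20 just outside 202 and 111 CPM. High-score cells were deeper, with a median of 16927 UMIs and 4001 genes against 14510.5 UMIs and 3535 genes in middle cells, while the mitochondrial share was 6.09% and 6.13%. Doublets were kept, and 8.83% and 8.91% of the cells lay above a cut on a doublet score. The libraries shared 14 cell barcodes, 9 of them among kept cells. In the MK library the same rule gave 718 high-score and 3587 middle cells, with 15561.5 and 16059 UMIs per cell. No MK middle cell had a score of 0, so the middle cells of the libraries are unlike baselines for the size of a ratio.

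The high-score cells kept the keratinocyte label of the line. Krt14, the type I keratin of the basal layer, had a UMI in all 691 of them and Krt5, its type II partner, in 685. Markers of other skin cell types were scarce. Of 8 fibroblast markers 6 were at 0, among them Col1a1, Col1a2, Col3a1 and Dcn, and nearly all of the list's 24.7 CPM (18.7 in middle cells) came from Fbln1. Of 8 immune markers 6 were at 0, including Ptprc, with 3.94 and 5.75 CPM over the list. The 7 pericyte and smooth muscle markers summed to 10.7 and 5.77 CPM, of which Acta2 made 10.1 CPM in high-score cells, with Myh11, Rgs5 and Pdgfrb at 0. Merkel cell markers, a type that shares Krt8, Krt18 and Krt20 with simple epithelia, summed to 10.4 and 13.0 CPM, with Atoh1 and Snap25 at 0 of 8. The 6 endothelial markers summed to 4.19 and 2.70 CPM with 2 at 0, the 6 melanocyte markers to 3.02 and 2.04 CPM with 2 at 0. The 7 luminal gland markers, which include Krt7, reached 62.3 and 52.4 CPM with 2 at 0, and the 12 hair follicle and sebaceous markers 57.4 and 59.9 CPM with 6 at 0.

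On GRCm38, Akap12 (ENSMUSG00000038587) lies on chromosome 10 from 4266380 to 4359470 and Ccn2 (ENSMUSG00000019997) on the same chromosome from 24595442 to 24598683, both on the plus strand. Fn1 (ENSMUSG00000026193) lies on the minus strand of chromosome 1 from 71585520 to 71653200, and Dbn1 (ENSMUSG00000034675) on that of chromosome 13 from 55473429 to 55488111. The files give 1 count per gene and cell, so no position within a gene is resolved.

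The score genes differed in how sharply they marked the set, and their values are a description because they chose it. Akap12 stood at 335 CPM in high-score and 33.8 CPM in middle cells, a ratio of 9.91 (interval 9.37 to 10.48). Krt8 stood at 451 and 11.02 CPM, a ratio of 40.9 (37.6 to 44.6). The set held 11.5% of the library's UMIs but 71.6% of its Krt8 and 47.9% of its Akap12 UMIs. Fn1 (84.6 and 20.54 CPM, ratio 4.12), Ccn2 (80.8 and 12.1 CPM, ratio 6.65) and Dbn1 (33.8 and 8.94 CPM, ratio 3.78) were less concentrated, with 33.0%, 40.4% and 31.6% of their UMIs in the set.

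**Figure D1:**
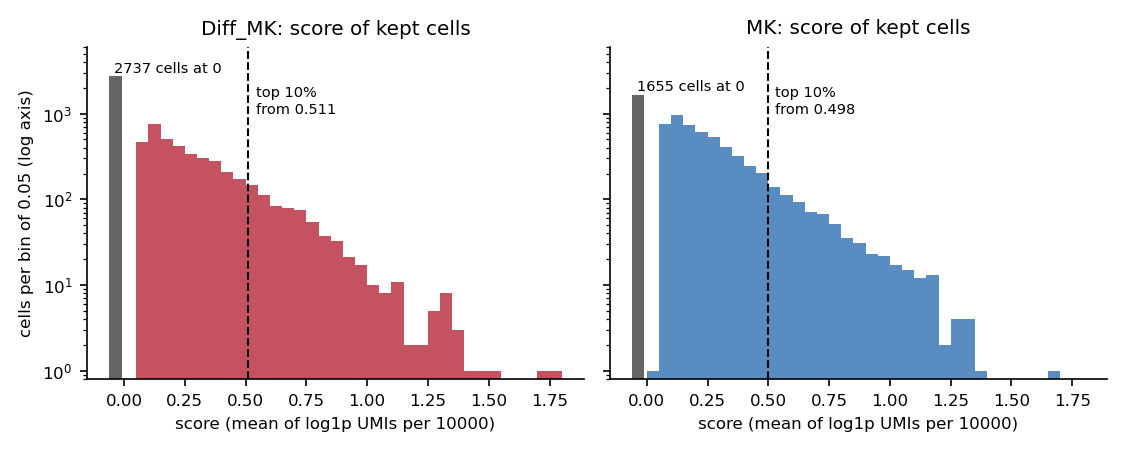
Number of kept cells per bin of the score (log axis) in the Diff_MK and MK RNA libraries, with cells at 0 as a grey bar and the cut for the top 10% as a dashed line. No gap separates the cells above the cut from the rest, and 2737 Diff_MK and 1655 MK cells stand at 0.

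In the MK cells chosen by the same rule the score genes were higher too. The rule sets this, so these values are again a description. Akap12 stood at 302 CPM in MK high-score and 69.6 CPM in MK middle cells (ratio 4.34, interval 4.145 to 4.54), and Krt8 at 687 and 20.1 CPM (ratio 34.1, 32.1 to 36.3). Fn1 had 62.6 and 22.6 CPM, Ccn2 39.8 and 8.16 CPM and Dbn1 20.9 and 5.05 CPM. Krt8 had the highest ratio in both libraries, and the order of the other 4 differed. Over all kept cells Akap12 stood at 80.3 CPM in Diff_MK and 92.4 CPM in MK, Krt8 at 72.3 and 93.03 CPM and Fn1 at 29.4 and 25.5 CPM, while Ccn2 (22.9 and 12.3 CPM) and Dbn1 (12.3 and 6.56 CPM) were the higher in Diff_MK. Detection without thinning was 93.5% of MK high-score cells for Akap12, 83.1% for Krt8, 55.0% for Fn1, 35.2% for Ccn2 and 25.9% for Dbn1, where the Diff_MK high-score cells had 89.7%, 67.1%, 69.2%, 52.4% and 40.5%. These shares come from 1 library each and their difference was not tested.

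Few cells carried all 5 genes. Of the 691 cells, 45 (6.5%) had a UMI of every score gene, 214 of 4, 280 (40.5%) of 3, 131 of 2 and 21 of a single one. To compare detection at equal depth, every cell was cut at random to 7500 UMIs, and 30 high-score and 291 middle cells with fewer were not used. Akap12 was then detected in 78.5% of high-score cells (interval 75.2 to 81.6%) and 20.1% of middle cells, against 89.7% and 34.3% without thinning. Krt8 was detected in 58.9% (55.0 to 62.6%) and 6.5% of thinned cells, against 67.1% and 10.97% without thinning. The library held no cells that should lack these genes, so the part of free RNA in the low shares was not tested. The share of thinned cells that reached the thinned cut was 10.2% in the Diff_MK library and 10.0% in the MK library, so the level of the score that marks the top cells was nearly the same in both.

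Over all thinned Diff_MK cells, Akap12 went with each of the other 4 genes. It was detected in 45.7% of cells with a Krt8 UMI (interval 42.3 to 49.0%) and 24.8% of cells without, and in 48.8% of cells with an Fn1 UMI and 23.7% of cells without. Krt8 and Dbn1 showed no such pairing at this depth, since Krt8 was detected in 14.2% of cells with a Dbn1 UMI (11.2 to 17.6%) and 13.9% of cells without. For Krt8 and Ccn2 the intervals overlapped, with Krt8 in 16.9% of cells with a Ccn2 UMI (14.2 to 19.8%) and 13.5% of cells without (12.7 to 14.5%). Depth is held equal in these shares, but all of them come from the same library. At the same depth in MK, Krt8 was detected in 26.7% of cells with a Dbn1 UMI (interval 21.9 to 31.9%). It was detected in 18.8% of MK cells without one (17.8 to 19.7%).

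When the cells were chosen again on the other 4 genes, each left-out gene was still higher in the new high-score cells. Akap12 stood at 206 and 58.4 CPM, a ratio of 3.54 (interval 3.35 to 3.73), and Krt8 at 181 and 57.1 CPM, a ratio of 3.17 (3.003 to 3.35). The ratio was 2.55 for Fn1, 2.88 for Ccn2 and 2.49 for Dbn1. These values are well below those in the cells chosen with the gene itself. Ratios of the left-out genes in MK cells were 2.68 for Akap12, 4.07 for Krt8, 1.71 for Fn1, 2.30 for Ccn2 and 2.87 for Dbn1. Each Diff_MK cell's UMIs were also divided at random into 2 equal portions. Of the 691 cells chosen on 1 portion, 412 (59.6%) were also chosen on the other, and in the portion that did not choose them Krt8 had a ratio of 27.6 and Akap12 of 7.08.

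Krt8 came with its filament partner in part of the cells. Krt18, which was not in the score, stood at 28.8 CPM in high-score cells and 2.08 CPM in middle cells, a ratio of 13.9 (interval 11.2 to 17.3). Over all kept cells it stood at 6.41 CPM, so it was counted only because of its level in the high-score cells. MK cells had 17.4 and 1.08 CPM, a ratio of 16.1 (12.1 to 21.7). Yet Krt18 was detected in only 67 of the 691 cells (9.7%), and in 8.6% of thinned high-score cells against 0.85% of thinned middle cells. Over all kept Diff_MK cells, Krt18 was higher in cells with more Krt8 UMIs, from 0.965 CPM in 5692 cells with none to 9.19 CPM in 776 cells with 1 to 4 and 58.0 CPM in 376 cells with 5 to 19. The 68 cells with 20 or more Krt8 UMIs, of which 67 were high-score cells, stood at 58.3 CPM, no higher than the group below.

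On the mouse build GRCm38, Krt8 (ENSMUSG00000049382) lies on the minus strand of chromosome 15 from 101996698 to 102004482 and Krt18 beside it on the plus strand from 102028180 to 102032027. Their annotated starts face away from each other and lie 23698 bases apart, so each partner gene has its own promoter. The promoters of these genes and of Ccn1, the YAP target closest in kind to Ccn2, are shown because Krt8 with Krt18, and the YAP targets, recur in the results. Each is the RefSeq sequence on GRCm38.p6 from 250 bases before to 50 bases after the start of the RefSeq entry, printed 5′ to 3′ on the gene's strand. Of the score genes, 2 of 5 (Krt8 and Dbn1) were found in the RefSeq promoter table used. Capitals mark matches on either strand to the 4 motifs searched. The GC box was searched as GGGCGG. For the TATA box the letters were TATAAA. The TEAD motif was taken as GGAATG. For AP-1 the search used TGANTCA.
Krt8, chr15:102004293-102004592, minus strand: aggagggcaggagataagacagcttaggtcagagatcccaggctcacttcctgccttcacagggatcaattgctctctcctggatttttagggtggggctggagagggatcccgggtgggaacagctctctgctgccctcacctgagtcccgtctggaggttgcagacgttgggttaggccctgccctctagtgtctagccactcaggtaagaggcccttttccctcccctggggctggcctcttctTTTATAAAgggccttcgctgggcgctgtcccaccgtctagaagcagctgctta
Krt18, chr15:102027966-102028265, plus strand: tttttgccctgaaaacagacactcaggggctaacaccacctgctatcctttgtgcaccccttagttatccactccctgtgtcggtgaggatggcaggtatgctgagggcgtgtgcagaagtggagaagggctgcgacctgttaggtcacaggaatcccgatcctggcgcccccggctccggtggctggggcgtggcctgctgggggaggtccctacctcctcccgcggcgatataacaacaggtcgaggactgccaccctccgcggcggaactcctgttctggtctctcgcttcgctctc
Ccn1, chr3:145649936-145650235, minus strand: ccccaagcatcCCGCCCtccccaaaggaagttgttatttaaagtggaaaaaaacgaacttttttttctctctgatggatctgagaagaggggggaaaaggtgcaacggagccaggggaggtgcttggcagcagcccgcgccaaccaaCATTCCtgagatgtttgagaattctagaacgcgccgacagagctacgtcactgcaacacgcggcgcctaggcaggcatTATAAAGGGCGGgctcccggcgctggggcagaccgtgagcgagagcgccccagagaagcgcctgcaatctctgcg
The Krt8 window held the TATA box on both strands, overlapping, right at the RefSeq start, and the Krt18 window held none of the 4 motifs. The Ccn1 window held 2 GC boxes, of which one adjoins a TATA box, and the TEAD motif once on the reverse strand. Of all 27025 promoters in the table, 35.9% held the GC box, 14.2% the TATA box, 14.6% the TEAD motif and 7.93% the AP-1 motif. They describe the letters in these windows only.

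The high-score cells did not all carry Krt8, and a division into 464 cells with a Krt8 UMI and 227 without was made after the values were seen. Without Krt8, cells reached the cut through more of the other genes: Ccn2 stood at 139 CPM in them and 53.4 CPM in the cells with Krt8, Fn1 at 115 and 70.5 CPM, and Akap12 at 404 and 302 CPM. The rule sets that exchange. Among the 464 cells the median was 7 Krt8 UMIs and the most was 231, and 172 cells had 10 or more. Genes outside the rule differed as well. Krt18 had 2 UMIs in the cells without Krt8 (0.524 CPM) and 342 in those with it (42.2 CPM). Slpi, encoding a secreted inhibitor of neutrophil elastase, stood at 401 and 893 CPM, and Krt7, another keratin of simple epithelia, at 19.4 and 60.3 CPM. Lgals7, the epithelial galectin-7, did not differ beyond counting error (204 and 208 CPM, ratio 1.02, interval 0.936 to 1.11), nor did the chemokine gene Ppbp (332 and 320 CPM, ratio 0.964, 0.901 to 1.03). In Diff_MK the low Lgals7 and high Ppbp described below thus belonged to cells with and without Krt8. In MK, Ppbp stood at 748 CPM in high-score cells with Krt8 and 478 CPM in those without (ratio 1.56, interval 1.45 to 1.68). MK middle cells had 418 CPM.

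Beyond the score genes, 7662 genes had 10 CPM or more in at least 1 of the sets of cells. Of these, 241 (3.15%) were higher in high-score cells by 1.5-fold or more, and 140 (1.83%) were lower by as much. The interval lay apart from 1 for all of them. With the minimum of 10 CPM set on all kept cells, a choice added after the data were seen, 180 were higher and 136 lower. The median log2 ratio over the genes was 0.12, and 70.3% lay above a ratio of 1. When ratios were centred on their median over genes, a shift of 0.12 on the log2 scale, 119 genes were higher and 227 lower, so that higher genes made 34.4% of the calls in place of 63.3%. These shares are the background against which the lists below are read.

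Among genes outside the score at 50 CPM or more, the 4 highest ratios belonged to a chemokine gene, protease inhibitor genes and keratin 17. Ppbp, which encodes the neutrophil chemokine precursor CXCL7, stood at 324 CPM in high-score and 113 CPM in middle cells (ratio 2.87, interval 2.76 to 2.99), and in MK cells at 707 and 418 CPM. Serpinb9b, an intracellular serpin, stood at 583 and 226 CPM (ratio 2.58) and Slpi at 736 and 334 CPM (ratio 2.20). In high-score cells without a Krt8 UMI, Slpi stood at 401 CPM in Diff_MK. In MK such cells had 370 CPM, lower than the 585 CPM of MK middle cells. Krt17, a keratin induced in stressed and wounded epidermis, stood at 925 and 386 CPM (ratio 2.40, 2.34 to 2.45). These 3 genes had MK ratios of 1.58, 1.65 and 1.45, in the same direction and smaller. The Diff_MK middle cells included 1009 cells at a score of 0 and the MK middle cells did not, so the baselines differ.

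Id1, Id2 and Id3 were all among the highest 15. They encode inhibitors of basic helix-loop-helix transcription factors and are standard targets of BMP signalling. Id3 stood at 592 and 279 CPM (ratio 2.12), Id1 at 468 and 245 CPM (ratio 1.91) and Id2 at 235 and 132 CPM (ratio 1.78, interval 1.71 to 1.87). Id3 and Id1 were higher by less in MK cells, with ratios of 1.27 and 1.24, and Id2 was on the other side of 1 at 164 and 180 CPM (ratio 0.912, 0.868 to 0.958). The 15 also held Tuba1a, an alpha-tubulin gene at 410 and 204 CPM, Stmn2, a microtubule-destabilizing stathmin gene at 80.1 and 39.9 CPM, and Ntm, a cell adhesion molecule gene at 58.4 and 27.0 CPM. The neutrophil chemokine genes Cxcl5 (1574 and 832 CPM, ratio 1.89) and Cxcl1 (358 and 196 CPM, ratio 1.83), the linker histone gene Hist1h1b (293 and 142 CPM), Bex3 (1068 and 550 CPM) and Tsc22d1 (189 and 99.5 CPM) completed the highest 15.

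Genes of stratified epithelium made up much of the other end. Krt15, a basal and bulge keratin, stood at 126 CPM in high-score and 670 CPM in middle cells and was 5.34-fold lower (ratio 0.187, interval 0.178 to 0.197). At 7500 UMIs per cell it was detected in 17.1% and 42.1% of cells, against 29.5% and 53.4% without thinning. Lgals7 stood at 206 and 873 CPM and was 4.23-fold lower. Krt6b was 13.1-fold lower (4.03 and 52.8 CPM), but its UMIs came from 24 high-score and 241 middle cells. The granular layer protease gene Asprv1 (9.81 and 59.6 CPM), the cornified envelope genes Sprr1a (32.4 and 108 CPM) and Sprr2d (122 and 302 CPM), the surface antigen gene Ly6d (421 and 1195 CPM), Krt16 (183 and 514 CPM) and the transcription factor gene Maf (28.7 and 76.4 CPM) were between 2.48-fold and 6.08-fold lower. MK high-score cells had lower levels too of Lgals7, Sprr1a, Sprr2d, Ly6d, Krt16 and Maf, with ratios from 0.405 to 0.601.

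Krt15 could not be followed into the MK library, where it stood at 0.870 and 1.01 CPM (ratio 0.858, interval 0.392 to 1.69). The rest of the lowest 15 were the chaperone gene Clu (26.5 and 80.9 CPM), the stress-responsive genes Ndrg1 (38.7 and 100.1 CPM), Ddit4 (20.7 and 52.2 CPM), Bnip3 (23.9 and 59.7 CPM) and Gadd45g (42.4 and 102 CPM), and Mvd of the mevalonate pathway (23.7 and 55.1 CPM). Several of these were not lower in MK high-score cells, where Ndrg1 stood at 17.6 and 10.3 CPM and Gadd45g at 34.3 and 23.1 CPM.

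**Figure D2:**
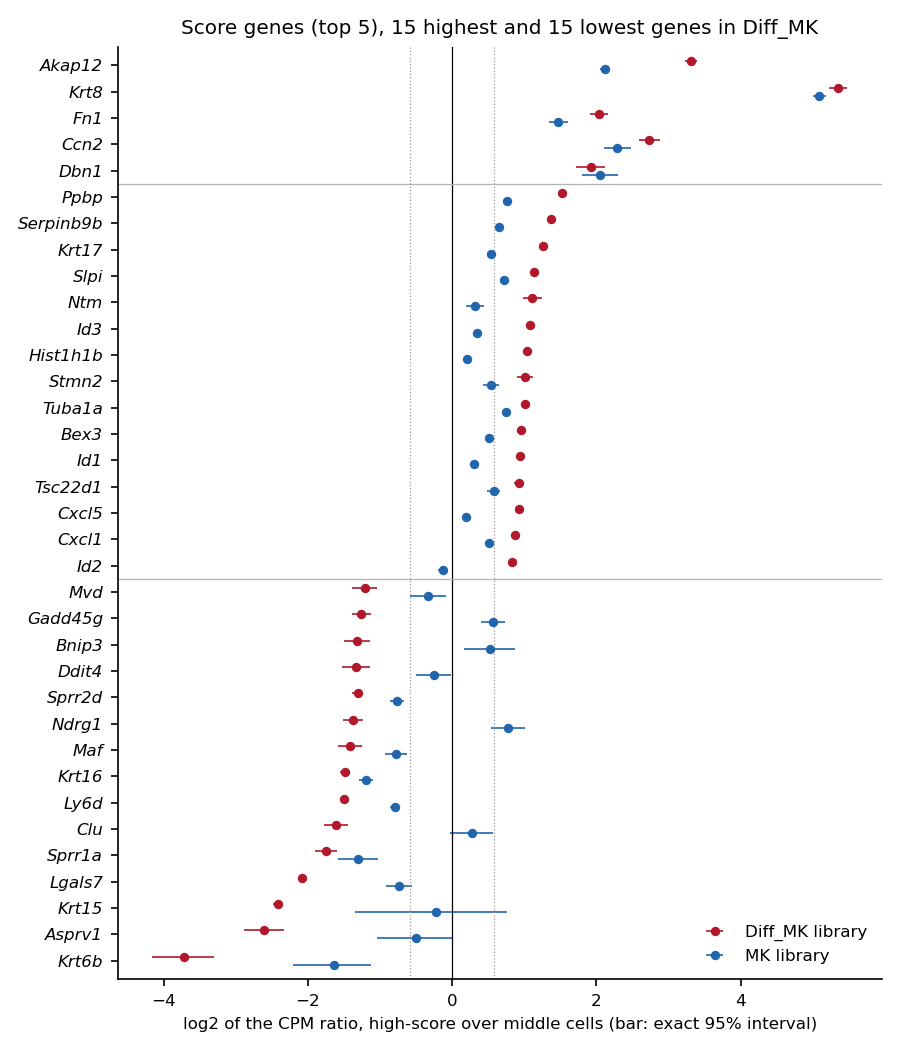
Log2 of the CPM ratio of high-score to middle cells for the 5 score genes, the 15 highest and the 15 lowest genes of Diff_MK (red) and the same genes in MK (blue), with exact 95% intervals for counting error and dotted lines at 1.5-fold. The 15 highest genes have smaller ratios in MK (Ppbp 2.87 and 1.69), and Ndrg1, Bnip3 and Gadd45g lie below 1 in Diff_MK and above it in MK. The Diff_MK middle cells include cells at a score of 0 and the MK middle cells do not.

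The actin cytoskeleton was the most uniform of the gene groups related to the score genes. Of 38 measured actin and myosin genes, with Dbn1 left out, 36 were higher in high-score cells, 11 (28.9%) by at least 1.5-fold, with a median log2 ratio of 0.45, or 0.33 relative to the median gene. Actb, the main cytoplasmic actin, stood at 4773 and 3178 CPM, Actn1, an actin crosslinker of stress fibres and adhesions, at 368 and 209 CPM, and Tpm1, a tropomyosin of the same filaments, at 249.1 and 149.7 CPM. Tmsb4x, encoding an actin monomer binder, stood at 5563 and 3485 CPM. Myl12b, a regulatory myosin light chain gene, stood at 6.71 and 2.31 CPM and entered the list through the high-score cells alone. Without it 35 of 37 were higher, 10 past 1.5-fold. Only Arpc2 and Capg lay below 1. Tagln, a smooth muscle actin-binding gene, had 3 counts in all high-score cells together (0.252 CPM, and 0.281 CPM in middle cells). Of 39 members measured in MK, 35 were higher, 2 by 1.5-fold or more, with a median of 0.21. Myl12b entered there too through the high-score cells alone, and without it 34 of 38 were higher, 1 past 1.5-fold.

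YAP targets lay mostly on the same side, and Ccn2 chose the cells and is left out of the count. Of 22 measured, 20 were higher, 5 (22.7%) by at least 1.5-fold, with a median log2 ratio of 0.42, or 0.30 relative to the median gene. Amotl2, a YAP-binding protein gene and target, stood at 39.7 and 16.9 CPM (ratio 2.34), Ccn1, the relative of Ccn2, at 37.7 and 21.0 CPM (ratio 1.80), and Tgfb2, encoding a TGF-beta ligand, at 5.70 and 2.01 CPM. Tgfb2 entered the list through the high-score cells alone, and without it 19 of 21 were higher, 4 of them past 1.5-fold. Dlc1, a RhoGAP gene, and Lats2, the kinase that restrains YAP, had ratios of 1.65 and 1.57. Nt5e (ratio 0.84) and Myof (0.98) were the members below 1. MK cells gave 19 of 21 higher with a median of 0.22, and Amotl2, Ccn1 and Dlc1 were again past 1.5-fold.

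Integrin and adhesion genes were higher in 19 of 23 cases in both libraries, with medians of 0.25 and 0.14. The genes below 1 were not the same in both. Itgb1, an integrin subunit gene, had a ratio of 1.19 in Diff_MK and 0.874 in MK, and Ilk had 1.30 and 0.863. In Diff_MK 70.3% of all genes lay above 1, and in MK 56.3%. Relative to the median gene the Diff_MK median was 0.135, with 16 of 23 members higher. Fermt2, which encodes the integrin activator kindlin-2, stood at 7.72 and 1.59 CPM in Diff_MK and 6.78 and 1.08 CPM in MK. It entered the list in both libraries through the high-score cells alone, and without it 18 of 22 were higher. Itga2, the collagen-binding integrin subunit, had a ratio of 1.71 and Parvb one of 1.59. The extracellular matrix list, with Fn1 left out, did not follow: 16 of 27 members were higher and the median was 0.04, or -0.08 relative to the median gene. Its members past 1.5-fold were Plat, encoding tissue plasminogen activator (ratio 1.98), the metalloprotease inhibitor genes Timp1 (1.853) and Timp2 (1.67), the urokinase receptor gene Plaur (1.84) and Thbs1, encoding thrombospondin-1 (1.61), while Efemp1 was lower (0.548). Plau, the urokinase gene, and the metalloprotease gene Mmp14 had ratios of 0.936 and 0.946.

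TGF-beta targets were mixed. Of 19, 13 were higher with a median of 0.18, or 0.06 relative to the median gene, and those past 1.5-fold were the 3 Id genes. Tgfbi (ratio 0.42) and Bhlhe40 (0.45) were lower. The list of protein kinase A anchoring and related genes, with Akap12 left out, was higher in 12 of 15 cases with a median of 0.27. Relative to the median gene the median was 0.16, with 11 of 15 higher. None passed 1.5-fold except Pde4d, a cyclic AMP phosphodiesterase gene (6.96 and 3.66 CPM), which entered through the high-score cells alone. Among 4 measured simple epithelial keratins beside Krt8, Krt18 was far higher, Krt7 (47.2 and 33.0 CPM, ratio 1.43) and Krt80 (26.4 and 19.9 CPM) were moderately higher, and Krt19 was lower (635 and 1238 CPM, ratio 0.513). In MK cells Krt19 was higher instead, with a ratio of 1.27. Choosing cells without Krt8 in the score turned Krt7 below 1 (log2 ratio -0.47), so its direction rested on Krt8.

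**Figure D3:**
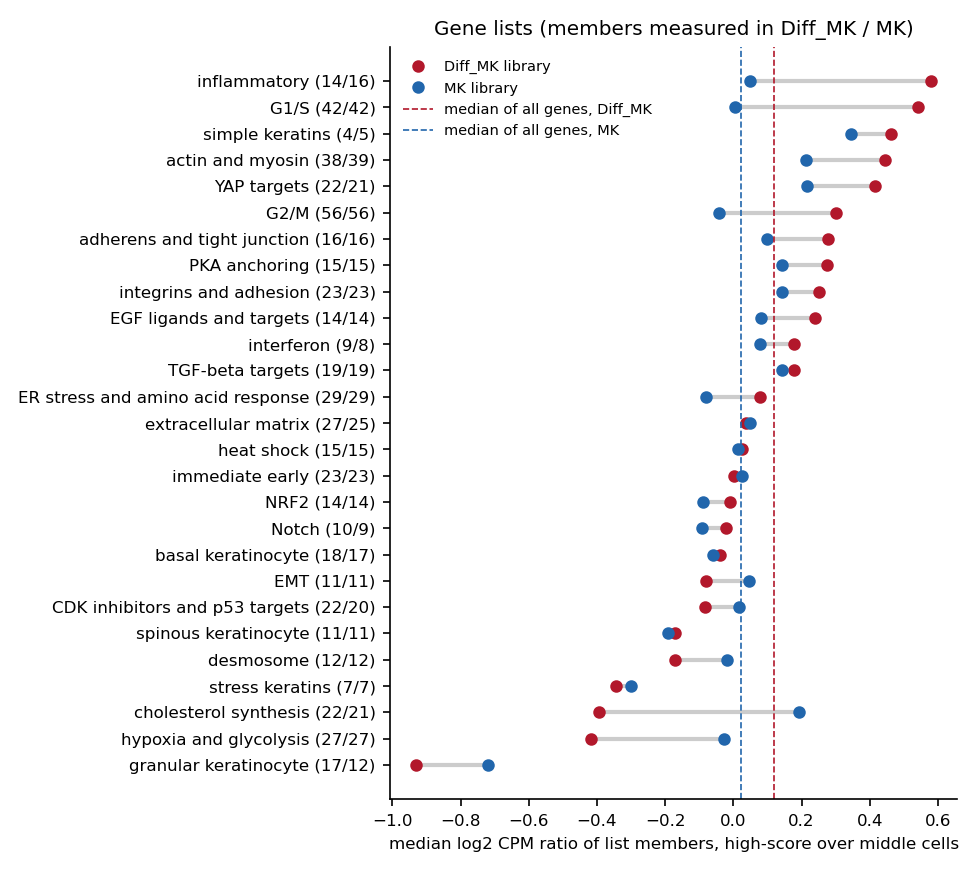
Median log2 CPM ratio of high-score to middle cells for each gene list in the Diff_MK (red) and MK (blue) libraries, with the number of measured members in brackets and dashed lines at the median of all genes. The G1/S, actin and myosin and YAP target lists lie above the dashed line in Diff_MK (0.54, 0.45 and 0.42), and the granular list lies below it in both libraries (-0.93 and -0.72).

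Programmes of the upper epidermis were lower in both libraries. Of 17 measured genes of the granular layer, 15 were lower in high-score cells, 11 (64.7%) by at least 1.5-fold, with a median log2 ratio of -0.93. Crct1, a late cornification gene, stood at 2.60 and 38.4 CPM, and Spink5, an epidermal protease inhibitor gene, at 660 and 963 CPM. Lor, encoding loricrin, stood at 32.0 and 30.1 CPM in Diff_MK but at 32.2 and 85.3 CPM in MK (ratio 0.377). The MK library gave 11 of 12 lower, 7 by 1.5-fold or more, with a median of -0.72. Spinous layer genes were lower in 10 of 11 cases (median -0.17) and in 9 of 11 in MK (-0.19), and desmosome genes in 10 of 12 cases (median -0.17, and -0.02 in MK). Adherens and tight junction genes had a median of 0.28 (0.10 in MK). Of these, 13 of 16 lay above 1, where 70.3% of all genes did in Diff_MK, and none passed 1.5-fold in either library.

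Basal keratins were lower. Krt5 stood at 1849 and 3092 CPM (ratio 0.598) and Krt14 at 8069 and 12407 CPM (ratio 0.650), and with Krt15 they were the 3 members of the 18 past 1.5-fold. The list's median was -0.04, with 9 of 18 members above 1, or -0.15 with 6 above when ratios were centred on the median gene. In MK cells Krt5 and Krt14 had ratios of 0.931 and 0.927. Stress keratins and their companions split, with Krt17 and Slpi higher, Krt6b and Krt16 lower and Krt6a at 2212 and 3000 CPM, while S100a8 (8.89 and 8.70 CPM) and S100a9 (5.53 and 7.03 CPM) differed by less than counting error. The median of the 7 genes, -0.34, was the value of S100a9.

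Cell cycle genes were higher in Diff_MK high-score cells than in the middle cells of that library. Of 42 G1/S genes 40 were higher, 17 (40.5%) by 1.5-fold or more, with a median log2 ratio of 0.54, and of 56 G2/M genes 54 were higher, 4 by 1.5-fold, with a median of 0.30. Mcm6, a subunit of the replicative helicase, stood at 98.6 and 56.3 CPM, while Pcna, the replication clamp, was level at 137 and 140 CPM. The median Diff_MK cell had 24.99 G1/S UMIs per 10000 among high-score cells and 14.4 among middle cells, and the MK values were 28.8 and 29.4, so the high-score cells of Diff_MK stood near the level of MK cells. Of the same genes in MK, 22 of 42 G1/S and 24 of 56 G2/M genes were higher, with medians of 0.00 and -0.04. Restricted to Diff_MK cells with no Krt15 UMI, a comparison added after the data were seen, the medians were 0.23 for G1/S and 0.06 for G2/M.

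Neutrophil-attracting and inflammatory genes were the list with the highest median in Diff_MK. Of 14 measured, 11 were higher, 7 (50%) by 1.5-fold or more, with a median of 0.58, and besides Ppbp, Cxcl5 and Cxcl1 these were Lcn2, Csf3, Lif and Tnfaip3. Lcn2, encoding lipocalin-2, stood at 16.8 and 6.67 CPM (ratio 2.51) but had a ratio of 0.667 in MK, and Csf3, encoding granulocyte colony-stimulating factor, stood at 26.6 and 14.1 CPM. Il1a (89.1 and 96.8 CPM) was not higher. In MK cells 8 of 16 members were higher and the median was 0.05, or 7 of 16 and -0.09 with the minimum set on all kept cells.

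Genes of cholesterol synthesis and of the hypoxia response were lower in Diff_MK high-score cells. Of 22 cholesterol synthesis genes 21 were lower, 5 by 1.5-fold or more, with a median of -0.39, and Fdps, the farnesyl diphosphate synthase gene, stood at 191 and 349 CPM. Of 27 members of the hypoxia and glycolysis list 24 were lower, 6 by 1.5-fold or more, with a median of -0.42, led by Adm, Ndrg1, Ddit4, Bnip3 and Egln3. In MK, 14 of 21 cholesterol genes were higher (median 0.19), and the hypoxia list stood at -0.03. Restricted to Diff_MK cells with no Krt15 UMI, the medians were -0.09 and -0.12. Lists for EGF ligands and targets (median 0.24), interferon (0.18), ER stress (0.08), heat shock (0.02), immediate early genes (0.00), NRF2 (-0.01), Notch (-0.02), EMT (-0.08) and CDK inhibitors with p53 targets (-0.08) lay closer to the median of all genes, 0.12.

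All Diff_MK cells were also ordered by score into 10 bins, which can show a gene following the score only above 0. Bins 1 to 3, and 662 of the 691 cells of bin 4, were cells at a score of 0 ordered by barcode, with medians between 11230 and 11560.5 UMIs, so differences among them carry no order of the score. Krt14 went from 19310 CPM in bin 1 to 8811 in bin 9 and 8069 in bin 10, and Krt15 from 1702 to 173 and 126 CPM. Id3 went from 138 to 496 and 592 CPM, Ppbp from 39.0 to 215 and 324 CPM and Cxcl5 from 301 to 1478 and 1574 CPM. Most of the distance between bins 1 and 10 lay below the top bin for these genes. The step from bin 4 to bin 5 was the largest for Krt14 (17334 to 11020 CPM), Krt15 (1338 to 480 CPM) and Cxcl5 (428 to 875 CPM). Median UMIs per cell went from 11230 to 17531 at that step, so depth changed with the score. Krt15 stood at 628 CPM in bin 6. For Krt18 (13.3 CPM in bin 9 and 28.8 in bin 10) and Krt17 (545 and 925 CPM) the last step was the largest. Krt8 went from 103 to 451 CPM there, which the rule sets.

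**Figure D4:**
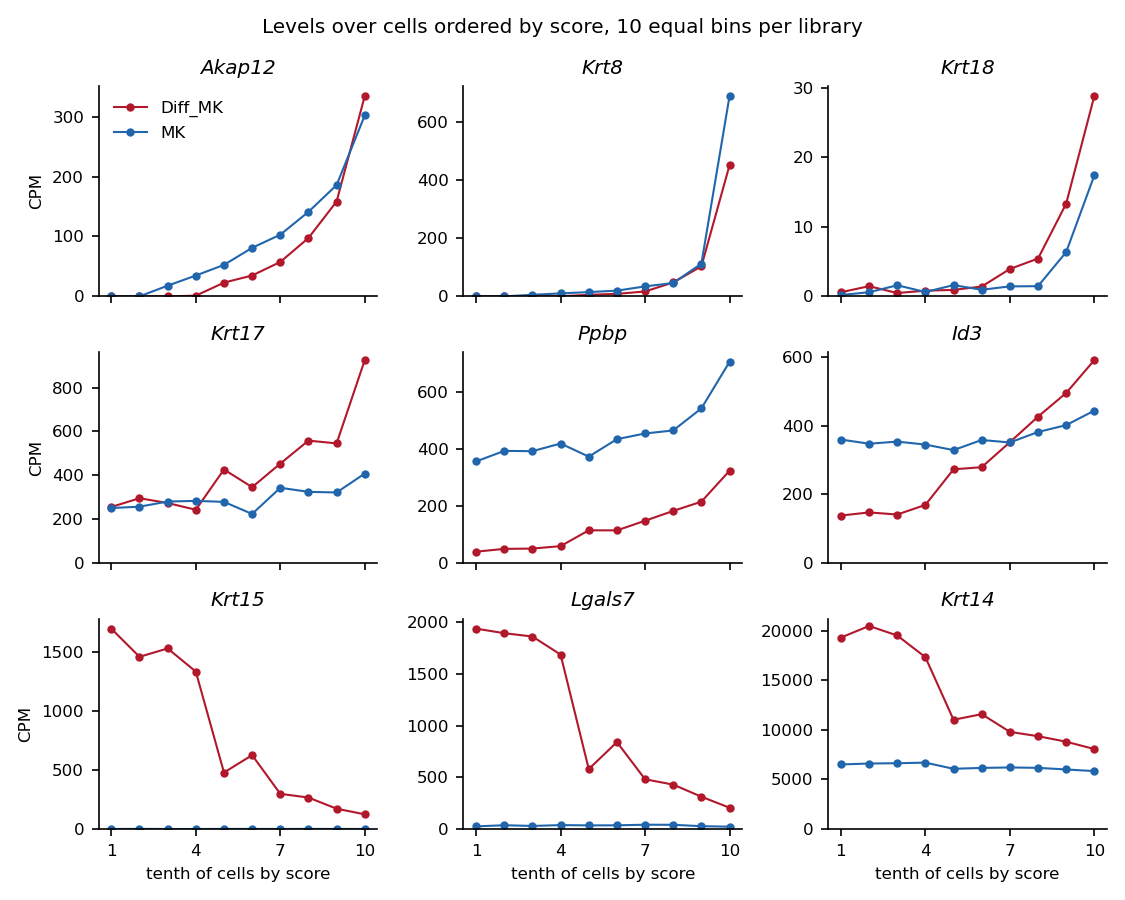
CPM (linear axes from 0) of 9 genes in 10 equal bins of cells ordered by score, for the Diff_MK (red) and MK (blue) libraries. In Diff_MK, Krt15 goes from 1702 to 126 CPM and Ppbp from 39.0 to 324 CPM, while in MK Krt15 stays near 1 CPM and Ppbp goes from 357 to 708 CPM.

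The same bins of MK cells were flatter for most of these genes. Krt14 went from 6517 to 5846 CPM, Id3 from 360 to 444 CPM and Cxcl5 from 1384 to 1718 CPM. Ly6d went from 433 to 151 CPM and Tuba1a from 127 to 273 CPM, and both also followed the score in Diff_MK (2260 to 421 CPM and 136 to 410 CPM). The MK library did not choose the Diff_MK cells, so it shows which of their differences also came with the score in other cells of the line.

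Over all genes, 45 of 7720 (0.583%) were higher by 1.5-fold or more in MK high-score cells and 60 (0.777%) were lower by as much, with a median log2 ratio of 0.02. Of 7424 genes measured in both libraries, 216 were called higher in Diff_MK and 36 in MK, and 20 in both, which is 9.26% of the first list and 55.6% of the second. Over all genes tested in Diff_MK, 3.15% were called higher and 1.83% lower. Of the 216, 183 (84.7%) also lay above 1 in MK, against 56.3% of all genes. The shared 20 included Krt18, Ppbp, Serpinb9b, Slpi, Tuba1a, Tubb2b, Amotl2, Ccn1, Dlc1 and Edn1, the gene of the vasoconstrictor endothelin-1. Krt18 entered in both libraries through the high-score cells alone, at 6.41 CPM over all kept Diff_MK and 3.25 CPM over all kept MK cells. The overlap was not counted with the minimum set on all kept cells. Of 90 genes lower in Diff_MK and 51 in MK, 26 were shared (28.9% and 50.98%), among them Lgals7, Ly6d, Krt16, Sprr1a, Sprr2d, Sprr2e, Maf and the metallothioneins Mt1 and Mt2. Ratios of the libraries correlated across genes with Pearson's r of 0.47 and Spearman's rho of 0.38, and genes are not independent replicates.

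The high-score cells lay partly together on other genes. Among the 15 nearest neighbours of a cell in 30 principal components computed without the 5 score genes, high-score cells made up a mean of 32.4% for high-score cells and 4.90% for middle cells, where the library holds 10.0%. The share ranged widely, with quartiles of 13.3% and 46.7%: 66 cells (9.55%) had no such neighbour and 156 (22.6%) had a majority. With cells thinned to 7500 UMIs the mean was 27.2%. Without thinning it was 32.4% for high-score cells with a Krt8 UMI and 32.5% for those without. In MK the mean without thinning was 25.1% for high-score and 5.47% for middle cells. There it was 26.7% for high-score cells with a Krt8 UMI and 17.0% for those without.

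Tag libraries, which the rule did not use, placed the cells in clones. Cells were put in 1 clone when they shared their most abundant tag, with a minimum of 3 counts and a lead of 2 times over the runner-up. A clone could be assigned to 539 of 691 high-score cells (78.0%, interval 74.7 to 81.0%), to 69.0% of middle cells and to 68.7% of all kept cells, and in MK to 59.6% of high-score and 65.7% of middle cells. Cells in a clone were high-score cells in 11.4% of cases and cells without one in 7.02%. The high-score cells came from 72 clones, and the most from 1 clone were 69.

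Clones differed in their share of high-score cells. Over 50 Diff_MK clones of 20 or more cells the share ranged from 0 to 44.4%, with a median of 9.86%. The interval lay above the overall 11.4% in 9 clones, below it in 8 and covered it in 33. The highest share was 12 of 27 cells in the clone of Tag43 (44.4%, interval 25.5 to 64.7%), where Krt8 stood at 622 CPM over all its cells. The clone of Tag20 followed among larger ones with 28 of 85 (32.9%, 23.1 to 44.0%), and the clones of Tag5 and Tag8 held 69 of 346 (19.9%) and 38 of 196 (19.4%). At the other end the clone of Tag9 held 2 of 169 (1.18%) and that of Tag2, the second largest, 25 of 498 (5.02%), while 7 clones with 269 cells held none, with upper limits of their intervals from 5.87 to 13.7%. The largest, that of Tag3, held 55 of 539 (10.2%).

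**Figure D5:**
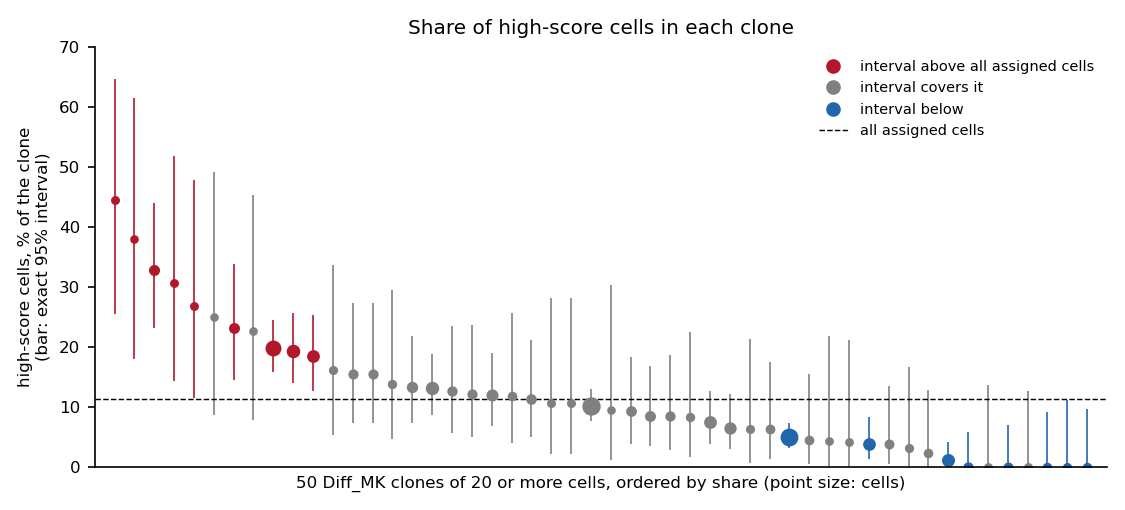
Share of high-score cells in each of 50 Diff_MK clones of 20 or more cells, ordered by share, with exact 95% intervals, point size for the number of cells and a dashed line at the share over all cells with a clone (11.4%). Shares run from 0 to 44.4%, and 9 intervals lie above the line (red) and 8 below it (blue).

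In MK the spread between clones was narrower. Over 46 clones the share ran from 0 to 16.5%, with 1 interval above and none below the overall share. For 19 clones found in both libraries with enough cells, the shares had a Spearman's rho of -0.24 as a description, and the clone with 44.4% in Diff_MK had 11.1% (3 of 27 cells) in MK. All clones of a library come from the same sample, so shares per clone have no replicate behind them.

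The differences between high-score and middle cells were also looked at inside clones. In 7 clones with at least 20 cells of each kind, the direction held in all 7 for Krt15 (ratios 0.014 to 0.469), Lgals7 (0.109 to 0.5999), Krt19 (0.256 to 0.602), Ly6d (0.062 to 0.313) and Krt14 (0.394 to 0.823). It also held in all 7 for Ppbp (1.40 to 5.51), Slpi (1.36 to 4.94), Serpinb9b (1.58 to 3.72), Id3 (1.53 to 3.24), Id1 (1.59 to 2.64), Cxcl5 (1.484 to 2.40), Tuba1a (1.37 to 2.82) and Tpm1 (1.21 to 1.89). Krt17 did not hold, with 5 clones above 1 and 2 below (0.568 to 5.53). In the clone of Tag6 it stood at 89.8 and 158 CPM, and in that of Tag3 at 391 and 70.8 CPM.

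Krt18 UMIs came from some clones and not from others. In the clones of Tag5 and Tag11 it stood at 48.65 and 105.7 CPM in high-score cells and 7.05 and 14.7 CPM in middle cells. The clones of Tag8, Tag6 and Tag3 had no Krt18 UMI in either kind of cell. Over all cells of these clones, in that order, Krt8 stood at 97.8, 31.1 and 54.7 CPM. Median log2 ratios of lists within the 7 clones ran from 0.46 to 0.91 for G1/S, 0.28 to 0.52 for actin and myosin, 0.23 to 0.63 for YAP targets, 0.15 to 1.02 for the inflammatory list, -1.19 to -0.65 for cholesterol synthesis and -0.76 to -0.26 for hypoxia and glycolysis. The granular list was lower in 6 clones and higher in 1, that of Tag2 (-2.21 to 0.35). With the clone make-up of both sets held equal over 31 clones (468 high-score and 1685 middle cells), a comparison added after the data were seen, Krt15 had a log2 ratio of -2.95, Ppbp of 1.51 and Krt17 of 0.84.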

How the data were processed

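Single-cell RNA and tag libraries were analysed as deposited. The RNA and tag matrices hold whole-number counts per feature and cell barcode, which the authors deposited without normalization. The headers of the RNA matrices name Cell Ranger 6.1.2, and the submitters' processing notes give mm10 as the build. The annotation and the making of the tag counts are not given in the sources used here. Positions are those of GENCODE vM21 (GRCm38).

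The members, gene lists (35) and tests were chosen with earlier results of these data known. Ties at a score of 0 were ordered by barcode. UMI counts were summed over each set of cells and scaled to CPM, and genes reaching 10 CPM in either set were counted past 1.5-fold. List members needed 5 CPM. Ratios carry exact conditional binomial intervals and shares exact Clopper-Pearson intervals. Named genes were the score genes, the 15 highest and 15 lowest ratios at 50 CPM or more after adding 10 counts, all measured members of 7 lists related to the score genes and the leading members of the others; other genes, such as Krt5, Krt6a, Spink5 and Tagln, were chosen after their values were seen. Doublets were scored with Scrublet in scanpy 1.11.5 and kept. Neighbours used 2000 variable genes. Tags were joined by the 16-base cell barcode, and counts in an entry named unmapped (10.1% in Diff_MK, 18.2% in MK) were left out. Depth totalled 103885150 UMIs in kept Diff_MK and 115181759 in kept MK cells. Alternatives are given in the closing section. The ratio step was tested on simulated data. Python 3.11.15, numpy 2.4.6 and scipy 1.17.1 were used.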

Additional observations from a re-analysis of the deposited data

Results flagged for a closer look

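Of the genes named, Itgb1 and Ilk aside, 7 lay on opposite sides of a ratio of 1 in the 2 libraries. Both intervals of each gene lay apart from 1. In MK high-score cells the CPM ratio to middle cells was 0.912 for Id2, 1.481 for Gadd45g, 1.44 for Bnip3 and 1.71 for Ndrg1, where the Diff_MK ratios were 1.78, 0.418, 0.401 and 0.387. It was 1.27 for Krt19, 1.14 for Fdps and 0.667 for Lcn2, where the Diff_MK ratios were 0.513, 0.545 and 2.51. Among lists with a median of at least 0.1 in size in both libraries, the cholesterol synthesis list had opposite signs, with a median log2 ratio of 0.19 in MK and -0.39 in Diff_MK. The difference between the libraries was not tested, since each is a single library. Their middle cells also differ, with cells at a score of 0 in Diff_MK only.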

How the results depend on the processing

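No paired analysis was possible because each group holds 1 library. The count of genes higher and lower in Diff_MK high-score cells (241 and 140) depended on the settings. It was 73 and 55 at a minimum of 50 CPM, 1167 and 968 at a minimum of 10 counts, 24 and 52 at 2-fold, 379 and 267 without Krt8 in the score, and 119 and 227 with median scaling. The higher count alone left the range of 1.5 times with cells thinned to 7500 UMIs (500), without Akap12 in the score (145), with the top 5% (370) or top 20% (145) of cells, with equal weight of cells (417) and among cells low in cell cycle UMIs (832). Comparisons added after the data were seen gave 1698 and 353 against cells at a score of 0, 484 and 261 among cells without a Krt8 UMI, and 126 (middle cells above 0) and 114 (cells without a Krt15 UMI) higher genes. In MK (45 and 60) the counts were 8 and 17 at 50 CPM, 876 and 857 at 10 counts and 8 and 9 at 2-fold, and 80 higher genes came with thinning and 28 with the minimum set on all kept cells (added after the data were seen). The neighbour share of 32.4% was 27.2% with thinned cells and 29.0% with 50 neighbours.

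Of 18 lists with a median of at least 0.1 in size in Diff_MK, 15 kept their sign in all 25 settings. Of 36 genes followed, 33 reversed in no setting. Krt15, among the 33, had no value in the setting of cells without a Krt15 UMI. The stress keratin list turned to 0.16 with thinned cells and 0.25 without Ccn2 in the score. The simple keratin list turned to -0.26 and Krt7 to -0.47 without Krt8 in the score, and among cells without a Krt8 UMI both stood at -0.996 and Krt18 at -0.40. The interferon list fell below 0 in 3 settings, to -0.11 at the lowest. Krt6a stood at a log2 ratio of 0.046 among cells without a Krt15 UMI. The cause was not tested. Depth limits the score itself: 39.6% of Diff_MK cells had no UMI of its 5 genes, and 59.6% of the cells chosen on 1 portion of their UMIs were chosen on the other.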
